A study of Mus musculus with 8 samples.

Results

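The 9 genes described here encode components of the complement system, its receptors for cleaved fragments and regulators of its activation: C1qa, C1qb, C1qc, C4b, C3, C3ar1, C5ar1, Serping1 and Clu. They were chosen by name, with earlier results of these data known. They are 9 of the 54532 genes listed for the PTS + RS and RS libraries and 9 of the 28229 genes listed for the RGFP109 and vehicle libraries, and all 9 had enough counts to be tested in both tables.

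RNA-seq libraries were made from the brains of C57BL/6 mice on Day 21. In PTS + RS mice a photothrombotic stroke, in which light activates the injected dye Rose Bengal and closes the vessels of the illuminated cortex, was combined with restraint stress (2 libraries), and RS mice had restraint stress with no stroke (2 libraries), so that restraint was shared by all groups and no group without it was sequenced. Further PTS + RS mice were given RGFP109 at 60 mg/kg subcutaneously once a day for 2 weeks (2 libraries), or vehicle, which the labels call NaCl (2 libraries). RGFP109 inhibits the class I histone deacetylases HDAC1 and HDAC3, and the labels call it an HDAC3 inhibitor. The PTS + RS and RS libraries carry the tissue label cortex, whereas replicate 1 of RGFP109 and of vehicle is labelled cortex and replicate 2 of each is labelled amygdala. The sources used here do not state whether a library holds a single mouse or a pool, so the p-values below measure the spread between these libraries, which may be technical. Where RGFP109 is compared with vehicle without the replicate number as a term, that spread also includes the difference between the tissue labels.

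The complement system is a cascade of plasma proteins that marks surfaces for removal. C1q, a protein built from the products of C1qa, C1qb and C1qc, starts the classical pathway, C4 and C3 are then cleaved and deposited on the target, and the released C3a and C5a fragments act on the receptors encoded by C3ar1 and C5ar1. In brain, C1q is made mainly by microglia and C4b and Clu in large part by astrocytes, and complement is known there for tagging synapses and debris that microglia take up through the receptor CR3.

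Each library held between 15902013 and 21712033 counts. The labels of the RGFP109 and vehicle libraries were checked against marker lists of 10 genes each. The summed level of the striatum list was 1339 CPM (counts per 1000000 of the normalized library size) in RGFP109 replicate 2 and 1477 CPM in vehicle replicate 2, against 166 to 247 CPM in the other 6 libraries, whereas the amygdala list, at 315 and 366 CPM, was within the 247 to 437 CPM of the other libraries. Of the 10 amygdala markers, 8 were higher under the amygdala label, with a median log2 fold change of 0.53, against 10 of 10 and 3.22 for the striatum list. The cerebral cortex list also stood higher in these libraries, at 1101 and 988 CPM against 621 to 718 CPM in the other 6. By summed level, the libraries labelled amygdala thus stood apart by striatum and cortex markers and not by amygdala markers. Sst and Etv1 made up much of the amygdala sum, at 140 and 94.2 CPM in RGFP109 replicate 2. In vehicle replicate 2 they were at 199 and 77.9 CPM. The amygdala sum thus mostly follows these genes and does not settle whether the label holds. Vehicle replicate 1 held 1934 CPM of the olfactory bulb list against 76.4 to 213 CPM in the other 7 libraries. The choroid plexus list ranged from 17.1 to 3924 CPM. It was at 1644 and 51.6 CPM in PTS + RS replicates 1 and 2 and at 1878 and 3924 CPM in those of RS. With RGFP109 it was at 1523 and 17.1 CPM, and with vehicle at 46.4 and 19.5 CPM. Hdac3, which encodes a target of RGFP109, was at 89.1 and 75.0 CPM with RGFP109 and at 79.2 and 78.2 CPM with vehicle. An inhibitor of the enzyme need not change its mRNA, so this does not check the treatment.

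The comparison of PTS + RS with RS asks how stroke changes cortical expression in mice that were all restrained. Of the 9 complement genes, 7 were called higher in PTS + RS by edgeR's quasi-likelihood test, where a call needs a Benjamini-Hochberg adjusted p under 0.05 and a change of 1 or more on the log2 scale. None was called lower, and 2.12% of all 17581 tested genes were called higher. The 7 are the C1q subunits, C4b, C3 and the receptors C3ar1 and C5ar1, which rose between 4.86-fold and 14.3-fold. The regulators Serping1 and Clu were not called. The 9 genes had a median log2 fold change of 2.69, against -0.0015 over all tested genes. The libraries of the groups did not overlap for any of the 9 genes, as was the case for 50.2% of all tested genes. In such bulk RNA, more cells of a type and more RNA per cell cannot be told apart. The vehicle library labelled cortex, from other PTS + RS mice, had C1q levels near those of RS, as given below.

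**Figure D1:**
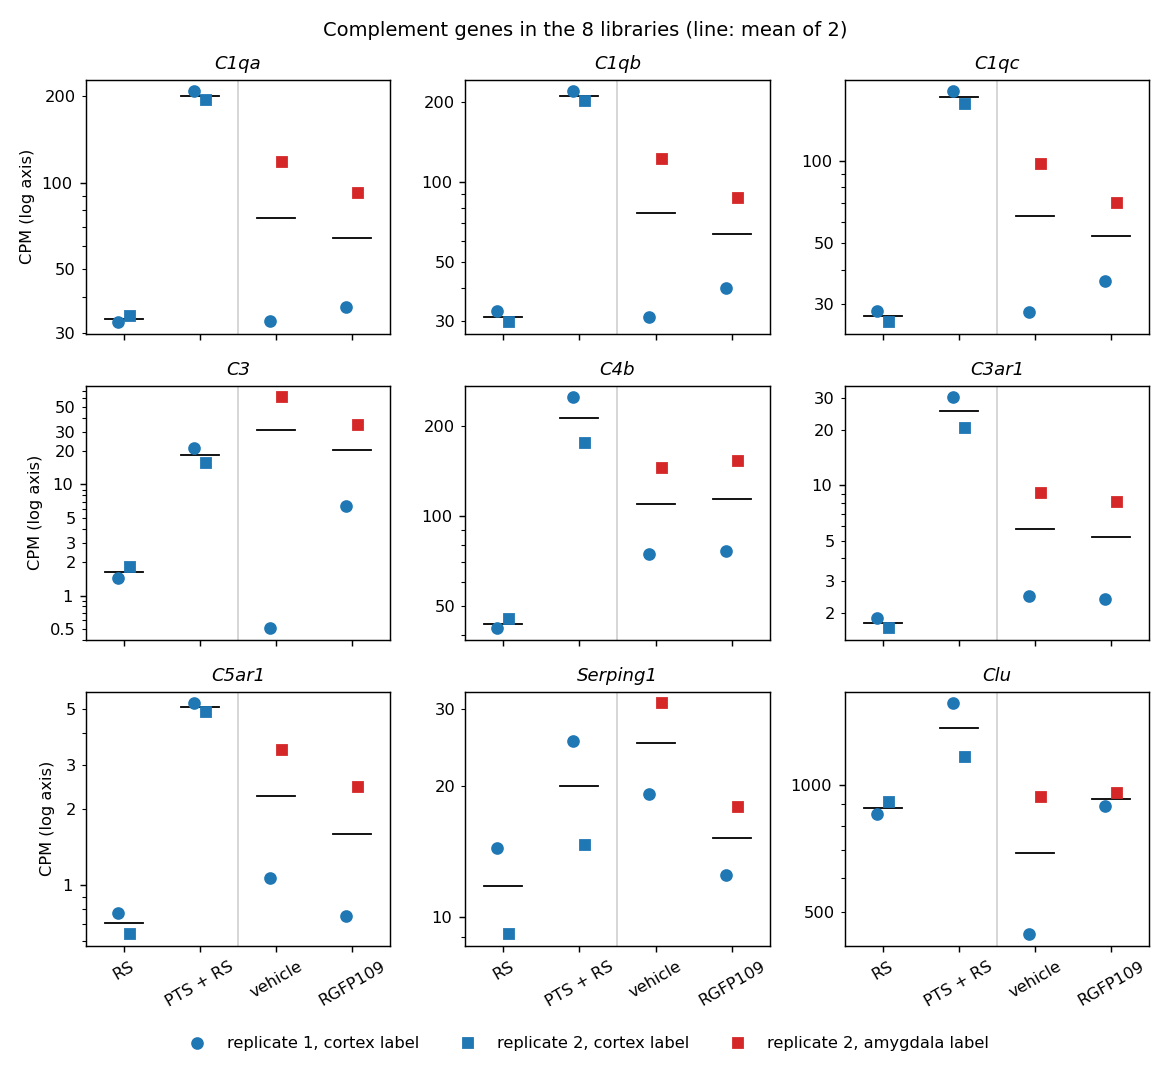
Level of each of the 9 complement genes in CPM (log axis) in each library, by group, with a line at the mean of the 2 libraries, circles for replicate 1, squares for replicate 2 and red for libraries labelled amygdala. The PTS + RS libraries lie above the RS libraries in all 9 panels, and in the RGFP109 and vehicle groups the red square lies above the blue circle in every panel.

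The genes of the 3 C1q subunits lie side by side on chromosome 4, all on the minus strand of GRCm38: C1qb at chr4:136880129-136886187, C1qc at chr4:136889804-136893065 and C1qa at chr4:136895917-136898803. C1qa (ENSMUSG00000036887) was at 208 and 194 CPM in the PTS + RS libraries and at 32.6 and 34.4 CPM in the RS libraries. The PTS + RS libraries were 6.00-fold higher in the mean, with little spread within either group (log2 fold change 2.61 ± 0.0837 SE, adjusted p = 7.96e-05, edgeR). C1qb (ENSMUSG00000036905) was at 220 and 202 CPM in PTS + RS and at 32.5 and 29.6 CPM in RS. Its rise was 6.78-fold (log2 fold change 2.78 ± 0.0928 SE, adjusted p = 7.96e-05, edgeR). C1qc (ENSMUSG00000036896) was at 180 and 162 CPM in PTS + RS and at 28.3 and 25.7 CPM in RS. It rose 6.35-fold (log2 fold change 2.69 ± 0.0971 SE, adjusted p = 7.96e-05, edgeR), so that the 3 subunits gave nearly the same fold.

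The subunits also kept nearly the same proportion to each other in all 8 libraries. In FPKM, the deposited level scaled for gene length and library depth, C1qb was between 0.823 and 1.03 times C1qa and C1qc between 0.403 and 0.530 times C1qa. The summed FPKM of the 3 subunits was 494 and 456 in PTS + RS and 74.9 and 72.5 in RS. With RGFP109 the sum was 91.6 in replicate 1 and 204 in replicate 2. With vehicle it was 74.2 in replicate 1 and 274 in replicate 2. The sum thus differed more than 6-fold between libraries while the ratios moved little.

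The promoters of C1qb and C1qc are shown because these genes had the most similar profile of any pair of the 9 genes, with a Pearson correlation of log2 CPM of 0.999 over the 8 libraries. Each sequence runs from 250 bases before to 50 bases after the RefSeq start (GRCm38.p6), here on the minus strand, at chr4:136886151-136886450 for C1qb and chr4:136892865-136893164 for C1qc. Capitals mark a match to the PU.1 core motif GAGGAAGT, read on the opposite strand.

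C1qb: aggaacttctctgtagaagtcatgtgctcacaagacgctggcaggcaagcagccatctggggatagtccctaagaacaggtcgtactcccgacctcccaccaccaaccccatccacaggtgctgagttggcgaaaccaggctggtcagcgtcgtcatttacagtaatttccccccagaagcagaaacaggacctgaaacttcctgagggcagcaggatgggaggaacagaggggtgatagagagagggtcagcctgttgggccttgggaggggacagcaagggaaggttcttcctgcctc

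C1qc: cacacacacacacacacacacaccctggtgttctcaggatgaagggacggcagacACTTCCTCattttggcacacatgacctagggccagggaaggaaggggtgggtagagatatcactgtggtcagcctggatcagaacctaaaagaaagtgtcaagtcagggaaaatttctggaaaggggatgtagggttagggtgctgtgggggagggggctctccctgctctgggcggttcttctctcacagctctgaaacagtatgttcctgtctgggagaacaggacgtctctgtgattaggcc

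The match in C1qc begins 195 bases before the start, and the C1qb window holds none. PU.1 is a transcription factor of microglia and other myeloid cells. The 8 letters occur in 3.20% of the 32851 RefSeq mouse promoters of this length, on either strand. The letters are a description of the window and say nothing about binding.

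C4b encodes the C4 protein that the activated C1 complex cleaves, and lies on the minus strand at chr17:34728380-34743882 (ENSMUSG00000073418). It was at 249 and 175 CPM in PTS + RS and at 42.2 and 45.2 CPM in RS. Both PTS + RS libraries lay well above the RS libraries, 4.86-fold in the mean (log2 fold change 2.30 ± 0.166 SE, adjusted p = 0.000927, edgeR). C4b shares much of its sequence with the neighbouring C4a, and how reads fitting both were counted is not given in the sources used here, so the values of both genes are uncertain to that extent. C4a itself was at 2.84 and 4.17 CPM in PTS + RS and at 3.50 and 3.70 CPM in RS, with overlapping groups.

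C3, the central component on which the activation routes converge, lies on the minus strand at chr17:57203970-57228136 (ENSMUSG00000024164). It was at 21.4 and 15.7 CPM in PTS + RS (370 and 264 counts) and at 1.44 and 1.79 CPM in RS (26 and 28 counts). C3 rose 11.5-fold (log2 fold change 3.55 ± 0.245 SE, adjusted p = 0.000787, edgeR). Per kilobase it stayed a low transcript: its FPKM was 0.0209 and 0.0164 times that of C1qa in the PTS + RS libraries and 0.00897 and 0.0105 times in the RS libraries.

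The promoter of C3 (RefSeq, GRCm38.p6, minus strand, chr17:57228087-57228386) is shown beside that of its receptor C3ar1 (minus strand, chr6:122856108-122856407), because these were the members with the largest fold changes in this comparison. Capitals mark a C/EBP motif TTGCNNAA in C3 and, in C3ar1, a kappa B motif GGGNNTTTC read on the opposite strand.

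C3: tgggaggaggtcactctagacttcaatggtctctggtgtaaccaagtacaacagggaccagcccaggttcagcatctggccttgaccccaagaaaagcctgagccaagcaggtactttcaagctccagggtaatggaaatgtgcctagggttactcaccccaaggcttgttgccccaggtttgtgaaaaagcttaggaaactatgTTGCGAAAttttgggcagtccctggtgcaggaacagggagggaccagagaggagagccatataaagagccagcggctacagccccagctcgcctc

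C3ar1: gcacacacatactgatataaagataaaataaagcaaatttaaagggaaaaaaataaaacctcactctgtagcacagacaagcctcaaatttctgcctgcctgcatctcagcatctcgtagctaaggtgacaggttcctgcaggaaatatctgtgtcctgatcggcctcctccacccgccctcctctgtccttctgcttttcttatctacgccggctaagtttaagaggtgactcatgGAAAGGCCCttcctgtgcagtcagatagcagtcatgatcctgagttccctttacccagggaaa

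The match in C3 begins 45 bases before the start and that in C3ar1 begins 13 bases before it. C/EBP and NF-kappa B are families of transcription factors known from inflammatory gene expression. The C/EBP letters occur in 10.8% and the kappa B letters in 4.36% of all 32851 promoters. The C5ar1 promoter held a match to an interferon element, GAAANNGAA, on the opposite strand from 66 bases before the start, as do 8.56% of promoters. The STAT motif TTCNNNGAA, found in 8.30% of promoters, and the shorter PU.1 motif AGAGGAAG, found in 4.55%, had no match in the 5 members with a sequence. The motifs were searched on both strands, and the PU.1 motifs overlap each other. Of the 9 genes, 5 matched an entry of the promoter table, and C1qa, C4b, Serping1 and Clu did not.

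C3ar1 encodes the receptor of the C3a fragment (ENSMUSG00000040552, chr6:122847138-122856161). It was at 30.3 and 20.6 CPM in PTS + RS and at 1.89 and 1.66 CPM in RS. Its 14.3-fold rise was the largest of the 9 genes (log2 fold change 3.85 ± 0.256 SE, adjusted p = 0.000667, edgeR). C5ar1 encodes the receptor of the C5a fragment (ENSMUSG00000049130, chr7:16246743-16259540). Its level was low, with 91 and 82 counts in PTS + RS and 14 and 10 in RS, or 5.27 and 4.88 CPM against 0.778 and 0.638 CPM. C5ar1 rose 7.17-fold (log2 fold change 2.85 ± 0.305 SE, adjusted p = 0.00406, edgeR).

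The regulators moved less. Serping1 encodes the inhibitor of the C1 proteases (ENSMUSG00000023224, chr2:84765387-84775444). It was at 25.3 and 14.6 CPM in PTS + RS and at 14.4 and 9.13 CPM in RS, so that the lower PTS + RS library barely exceeded the higher RS library. The log2 fold change was 0.77 ± 0.304 SE (adjusted p = 0.246, edgeR) and was not called. With 1 library left out it ranged from 0.32 without PTS + RS replicate 1 (adjusted p = 0.44, edgeR) to 1.15 without RS replicate 1 (adjusted p = 0.089, edgeR), and it was called only without PTS + RS replicate 2, at 1.11 (adjusted p = 0.0055, edgeR). Clu encodes clusterin, a secreted chaperone that also restrains the terminal membrane attack complex (ENSMUSG00000022037, chr14:65968483-65981547, plus strand). It was the most abundant of the 9 genes, at 1565 and 1169 CPM in PTS + RS and at 853 and 911 CPM in RS. The 1.55-fold difference missed both limits of a call (log2 fold change 0.65 ± 0.148 SE, adjusted p = 0.0651, edgeR). DESeq2 gave the same log2 fold change with an adjusted p of 7.5e-05, so that there the size of the change alone kept Clu from a call.

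**Figure D2:**
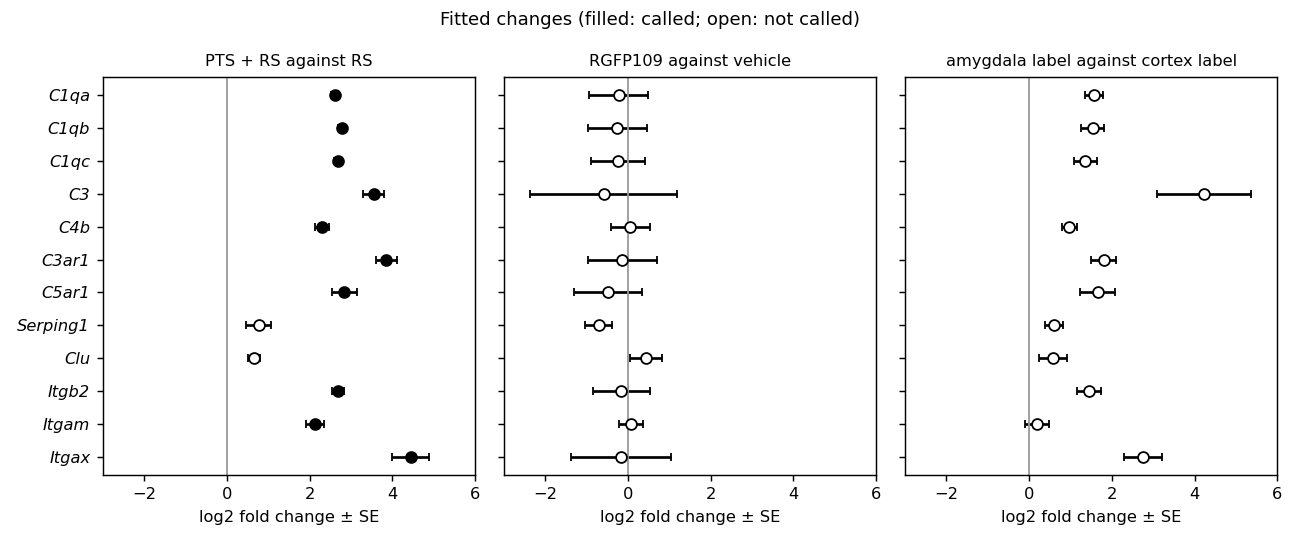
Log2 fold change with its standard error (edgeR) of the 9 complement genes and of the 3 integrin genes of complement receptors in 3 comparisons, filled points for genes called and open points for genes not called. Filled points, from 2.13 to 4.45, stand in the panel of PTS + RS against RS alone, and the amygdala label panel has every point above 0.

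Of 55 other complement genes listed by role, 39 were tested against RS, and 3 were called, all higher in PTS + RS. Of all tested genes, 2.12% were called higher. All 3 encode integrin chains of the complement receptors for deposited C3 fragments. Itgb2, the shared beta chain, was at 36.3 and 32.5 CPM against 5.56 and 5.30 CPM in RS (log2 fold change 2.69, adjusted p = 0.000376, edgeR). Itgam, the alpha chain of CR3, was at 19.1 and 18.6 CPM against 5.22 and 3.45 CPM (log2 fold change 2.13, adjusted p = 0.00333, edgeR). Itgax, the alpha chain of CR4, was at 10.1 and 5.42 CPM against 0.389 and 0.319 CPM (log2 fold change 4.45, adjusted p = 0.00345, edgeR). The PTS + RS libraries lay above the RS libraries for each chain.

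The remaining roles showed no call. Over the 39 tested genes the median log2 fold change was 0.09, with 21 above 0 and 11 at an unadjusted p under 0.05 (edgeR). Of all 17581 tested genes, 1811 were higher and 1328 lower at that limit. None was called among the 4 tested genes of the C1 proteases and early components, the 5 of the lectin pathway, the 2 of the alternative pathway, the 2 terminal components, the 4 fluid-phase inhibitors, the 8 membrane inhibitors and the 7 neuronal proteins that bind C1q or resemble its partners. The largest differences that were not called were those of Cpn1, C5ar2 and Cd59a. Cpn1, a chain of the carboxypeptidase that inactivates C3a and C5a, had 1 and 10 counts in PTS + RS and 17 and 21 in RS. C5ar2, the second C5a receptor, was at 2.38 and 2.03 CPM in PTS + RS and at 1.22 and 0.638 CPM in RS (log2 fold change 1.24, adjusted p = 0.181, edgeR). Cd59a, a membrane inhibitor of the terminal complex, was at 6.96 and 3.51 CPM in PTS + RS and at 10.3 and 10.4 CPM in RS (log2 fold change -0.96, adjusted p = 0.159, edgeR).

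Markers of microglia moved with the complement genes. All 12 markers of the microglia list were higher in PTS + RS, 10 of them called, with a median log2 fold change of 1.71, and their summed level was 1165 and 995 CPM in PTS + RS against 355 and 316 CPM in RS, with no marker at 0 in any library. Tmem119, a marker of resident microglia, was at 31.7 and 34.6 CPM against 15.2 and 17.0 CPM. The list of 8 border macrophage markers summed to 167 and 120 CPM in PTS + RS and to 40.0 and 36.2 CPM in RS, and the 5 neutrophil markers listed in both tables summed to at most 1.96 CPM in any library. Of 12 astrocyte markers, 11 were higher and 2 were called, and Gfap, the filament protein of reactive astrocytes, was at 2044 and 1445 CPM against 374 and 358 CPM. Neither cell type's part in the complement result was tested.

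Relative to the microglia markers the complement genes split. The mean log2 CPM of the 12 microglia markers was 5.93 and 5.81 in PTS + RS and 4.42 and 4.26 in RS. Subtracting it in each library left the C1q genes 1.06 (C1qa), 1.23 (C1qb) and 1.14 (C1qc) higher in PTS + RS on the log2 scale, C5ar1 1.14, C3 1.89 and C3ar1 2.21 higher, and C4b 0.73 higher. On the same scale Serping1 was lower by a difference of -0.79 and Clu by -0.91. These are differences of means of 2 libraries and were not tested. So the differences of the 7 called genes were above the average of the microglia markers, and those of the 2 regulators were below it. The fitted log2 fold changes of the 12 markers ranged from 0.84 to 2.45, so that C4b, at 2.30, lay within their range. The other called genes lay above that range and the regulators below it. Those of the 12 astrocyte markers ranged from -0.10 to 2.27, with a median of 0.32. Serping1, at 0.77, and Clu, at 0.65, lay within the astrocyte range and above its median, and the 7 called genes lay above it. The place of the regulators thus depends on the markers taken as reference.

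**Figure D3:**
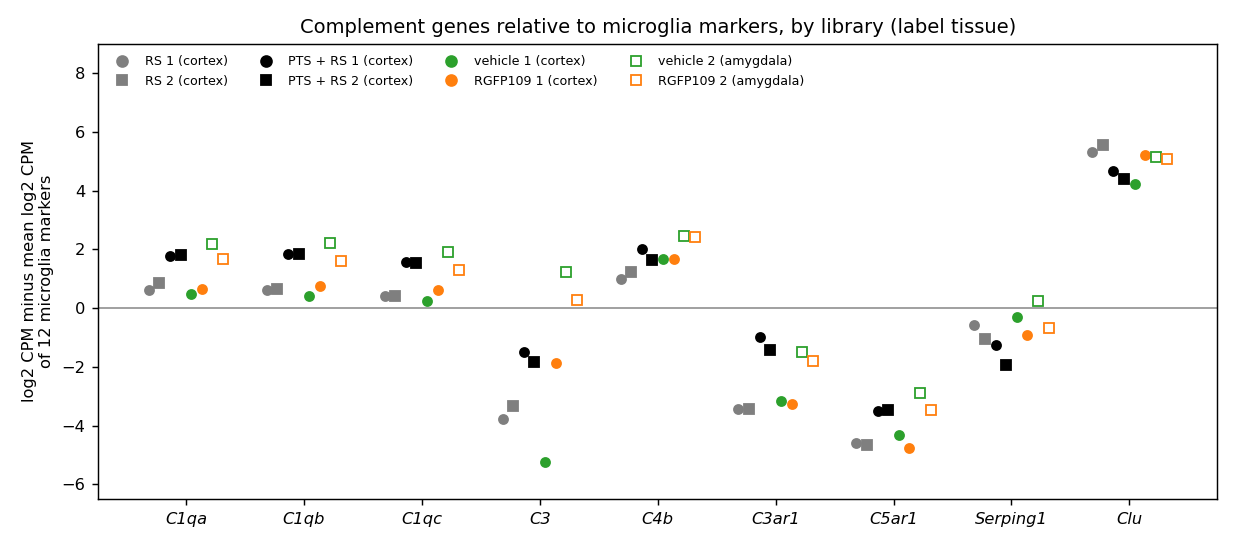
Log2 CPM of each complement gene minus the mean log2 CPM of the 12 microglia markers (vertical axis) in each of the 8 libraries, with open symbols for libraries labelled amygdala. For C1qa the PTS + RS libraries lie at 1.77 and 1.80 and the RS libraries at 0.61 and 0.85, and C3 reaches 0.27 and 1.22 in the libraries labelled amygdala.

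The order of levels per length was similar in the groups. In PTS + RS the mean FPKM was 397 for Clu, 193 for C1qa and for C1qb, 88.6 for C1qc, 37.2 for C4b, 8.56 for Serping1, 5.90 for C3ar1, 3.61 for C3 and 1.97 for C5ar1. C1qa and C1qb overlapped there, as did Serping1 and C3ar1, and the other neighbours did not. In RS the order was the same, with 253 for Clu at the top and 0.272 for C5ar1 at the bottom, and C3 overlapped C5ar1. In the RGFP109 and vehicle groups C3 stood above C3ar1 in the mean, at 3.94 against 1.22 and 5.94 against 1.34 FPKM, but their libraries overlapped in both groups. In vehicle replicate 1 C3 was below C3ar1, at 0.0984 against 0.575 FPKM.

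In the RGFP109 and vehicle libraries the tissue label, which is also the replicate number, went with larger fitted differences than the treatment for 8 of the 9 genes. The exception was Serping1, at 0.60 on the log2 scale for the label and -0.71 for the treatment. All 9 complement genes were higher in the libraries labelled amygdala than in those labelled cortex, with a median log2 fold change of 1.53 in a fit with the treatment as a term, against -0.013 over all tested genes. None of the 9 was called by edgeR's quasi-likelihood test, and 0% of the 17565 tested genes were called. At an unadjusted p under 0.05, 8 of the 9 genes were higher, among 1069 genes higher and 538 lower in all. DESeq2 called 3 of the 9, C1qa, C1qb and C1qc, and limma-voom called 0. DESeq2 also called many genes beyond these, higher and lower, as counted in the closing sections. The labels' libraries did not overlap for 8 of the 9 genes, all but Serping1, as for 44.0% of all tested genes. When a cortex-labelled library was left out, the fits had no treatment term and took the lone cortex library to vary like the others. Calls over all genes rose there too, so calls in those fits are counted only in the closing sections. The log2 fold changes of all 9 genes stayed above 0 when any 1 library was left out. As given above, the libraries labelled amygdala also differed in striatum markers, and the part of tissue content in these differences was not tested.

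C1qa was at 91.7 CPM with RGFP109 and 118 CPM with vehicle in the libraries labelled amygdala, and at 36.9 and 32.8 CPM in those labelled cortex. The former pair was 3.01-fold higher (log2 fold change 1.56 ± 0.221 SE, adjusted p = 0.311, edgeR). C1qb was at 87.3 and 122 CPM against 39.9 and 31.0 CPM, and C1qc at 70.0 and 97.8 CPM against 36.3 and 28.0 CPM, again with RGFP109 first. The cortex-labelled libraries lay near the 25.7 to 34.4 CPM of these genes in RS, and those labelled amygdala lay between RS and PTS + RS. The vehicle library labelled cortex is also from PTS + RS mice, with no RGFP109. The rise of the C1q genes over RS thus did not appear in it, with C1qa at 32.8 CPM against 208 and 194 CPM in PTS + RS. C3ar1 was at 2.49 CPM there, against 30.3 and 20.6 CPM in PTS + RS. C4b, at 74.4 CPM, lay between RS and PTS + RS. Gfap, at 288 CPM in the same library, was below its 374 and 358 CPM in RS. The microglia markers without Sall1, a marker taken up below, summed to 295 CPM in it. They summed to 328 and 295 CPM in RS and to 1116 and 955 CPM in PTS + RS. RGFP109 replicate 1 was near RS in both too, with Gfap at 435 CPM and the sum at 375 CPM. The vehicle library labelled cortex also held the olfactory bulb markers, and the reason was not tested. Levels set across the tables are descriptions, since the tables are separate experiments.

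C3 spread further. With RGFP109 it was at 34.2 CPM in the library labelled amygdala and 6.35 CPM in that labelled cortex, and with vehicle it was at 61.0 and 0.508 CPM, the last from 9 counts. Its mean was 13.9-fold higher under the amygdala label (log2 fold change 4.22 ± 1.14 SE, adjusted p = 0.447, edgeR). The size rested on the cortex-labelled libraries, with a log2 fold change of 6.52 without RGFP109 replicate 1 and of 2.90 without vehicle replicate 1. In both libraries labelled amygdala C3 exceeded the 21.4 CPM of the higher PTS + RS library, whereas C1qa stayed below both PTS + RS libraries. The FPKM of C3 was accordingly 0.0755 and 0.104 times that of C1qa in the libraries labelled amygdala, against at most 0.0348 times in the other 6.

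C4b was at 152 and 145 CPM against 76.5 and 74.4 CPM, 1.97-fold higher, with RGFP109 first in each pair (log2 fold change 0.97 ± 0.182 SE, adjusted p = 0.372, edgeR). The receptors C3ar1, at 8.10 and 9.11 CPM against 2.39 and 2.49 CPM, and C5ar1, at 2.44 and 3.44 CPM against 0.755 and 1.07 CPM, were 3.53-fold and 3.21-fold higher. Serping1 was 1.55-fold higher, at 17.9 and 30.9 CPM against 12.5 and 19.1 CPM, and its labels overlapped. Clu was at 957 and 935 CPM against 893 and 442 CPM, where the low value is that of vehicle replicate 1, the library with the olfactory bulb markers.

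The microglia markers differed by less under the amygdala label than the C1q genes did, a contrast that was not tested. Their mean log2 CPM was 4.83 with RGFP109 and 4.71 with vehicle, against 4.57 and 4.55 in the libraries labelled cortex. Of the 12 markers, 9 were higher, with a median log2 fold change of 0.38, and they summed to 474 and 454 CPM against 402 and 502 CPM in the cortex-labelled libraries. Of the 502 CPM, found in vehicle replicate 1, 207 CPM were those of Sall1, which was at 23.8 to 27.9 CPM in the other 3 libraries. Without Sall1, left out after its values were seen, the sums were 447 and 430 CPM against 375 and 295 CPM, so that both libraries labelled amygdala were higher, and the means of log2 CPM were 4.84 and 4.72 against 4.55 and 4.27. The 8 border macrophage markers were all higher, with sums of 77.0 and 111 CPM against 60.9 and 54.0 CPM. The 38 other complement genes tested had a median log2 fold change of 0.07, with 0 called and 9 at an unadjusted p under 0.05. Itgax was 6.77-fold and Itgb2 2.76-fold higher in the mean, whereas Itgam, at 6.79 and 6.87 CPM against 6.29 and 5.59 CPM, was 1.15-fold higher.

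The comparison of RGFP109 with vehicle asks how the inhibitor changes expression in PTS + RS mice. No complement gene was called, and 0% of the 17565 tested genes were called by edgeR's quasi-likelihood test, by DESeq2 or by limma-voom. At an unadjusted p under 0.05, 88 genes were higher and 118 lower, and none of the 9 was among them. The 9 genes had a median log2 fold change of -0.24, with 2 above 0. The groups overlapped for all but Serping1, while 26.6% of all tested genes had groups that did not overlap. Serping1 was at 12.5 and 17.9 CPM with RGFP109 and at 19.1 and 30.9 CPM with vehicle, lower in both libraries with RGFP109 (log2 fold change -0.71 ± 0.328 SE, unadjusted p = 0.0833, adjusted p = 1.0, edgeR). Of the standard errors, that of C3 was the largest at 1.77 on the log2 scale, and those of the C1q genes were 0.650 to 0.719. This fit had no term for the replicate number, and each group mixes both tissue labels. Its standard errors and p-values thus include the difference between the labels. Differences of 2 standard errors were not called either, as for Serping1.

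With the replicate number as a block, which compares libraries of the same tissue label, again none of the 9 genes was called, and the log2 fold change of C3 turned from -0.59 to 0.86. Within the replicate numbers, C3 with RGFP109 over vehicle was 3.38 on the log2 scale in replicate 1 and -0.83 in replicate 2. C1qa was at 0.17 and -0.36, C1qb at 0.36 and -0.48 and C1qc at 0.38 and -0.48. These 4 genes thus differed in opposite directions under the tissue labels. The values of the other 5 had the same sign in both replicate numbers: Serping1 at -0.61 and -0.78, C5ar1 at -0.45 and -0.48, C3ar1 at -0.05 and -0.17, C4b at 0.04 and 0.07, and Clu at 1.02 and 0.03. Each value rests on 1 library per treatment and has no replicate check.

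**Figure D4:**
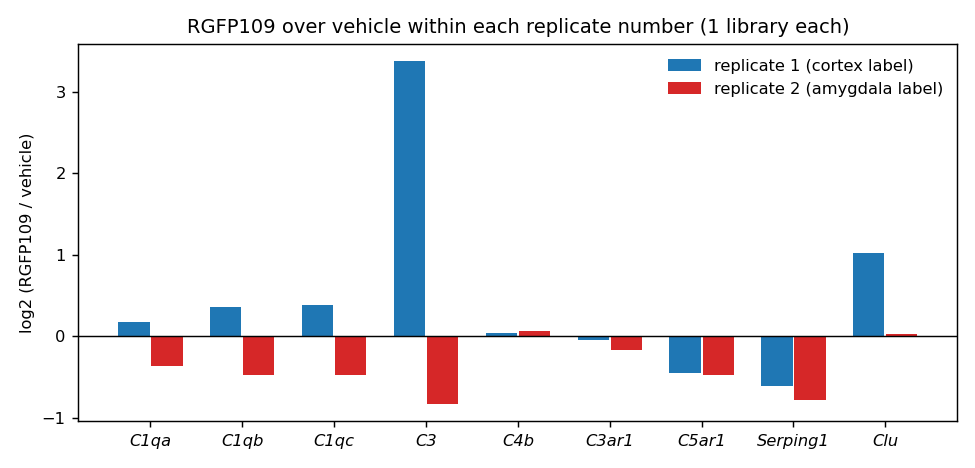
Log2 ratio of RGFP109 over vehicle for each complement gene within replicate 1 (cortex label, blue) and replicate 2 (amygdala label, red), each bar from 1 library per treatment with no error. The bars of C1qa, C1qb, C1qc and C3 point up in replicate 1 and down in replicate 2, and those of Serping1 and C5ar1 point down in both.

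Of the other complement genes, 38 were tested with RGFP109 and 0 were called, with 0 at an unadjusted p under 0.05. The largest differences were those of Colec11, Nptx1 and Fcna. Colec11, a collectin of the lectin pathway, had 13 and 21 counts with RGFP109 and 1 and 6 counts with vehicle. Nptx1, a neuronal pentraxin related to proteins that C1q binds, was at 647 and 492 CPM with RGFP109 and at 143 and 443 CPM with vehicle, the low value again in vehicle replicate 1. Fcna, a ficolin, had 7 counts in each RGFP109 library and 12 and 15 counts with vehicle. The microglia markers were at a median log2 fold change of 0.17, with 0 of 12 called.

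The genes most like each complement gene were taken by the Pearson correlation of log2 CPM over the 8 libraries, among 16947 genes tested in both tables. The libraries share the group and tissue differences, so these values only describe the profiles. Next to each other, the C1q genes were most like Tyrobp (0.998 with C1qb), a signalling adaptor of myeloid cells, and Mpeg1 (0.997 with C1qc), a macrophage perforin. C3ar1 was most like Tnfrsf1b (0.996), Mpeg1 (0.995) and Fermt3 (0.994), and C5ar1 was most like Fyb (0.997), Ctsh (0.991) and Cd52 (0.990), several of which are leukocyte genes. C4b was most like Ggta1 (0.993), Cd22 (0.992) and Cmklr1 (0.987). C3 was most like Arhgap25 (0.983), Ykt6 (0.981) and Sdc4 (0.978), and shared none of its 3 partners with the C1q genes. Clu was most like Skap2 (0.990), Ctsc (0.984) and Il15ra (0.981), and Serping1 most like Gm6712 (0.961), Yeats4 (0.955) and Anxa5 (0.940).

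Among the 9 genes themselves, the C1q genes and the receptors formed the closest group, with correlations of 0.977 to 0.999. C4b was at 0.937 to 0.960 with these 5. C3 was at 0.754 to 0.813 with them and at 0.800 with C4b. Serping1 and Clu were the least alike, at 0.132.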

How the data were processed

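Gene expression was measured by RNA-seq in 8 libraries, 2 in each of 4 groups, grouped by the sample labels. The authors aligned reads to GRCm38 with STAR 2.4.0 and counted them per gene with HTSeq 0.6.1, and the deposited counts are not normalized. The deposited FPKM are those counts scaled for gene length and library depth, as the authors calculated them. The sources name different library kits, and the strand setting of the counting is not given in the sources used here, so reads of overlapping genes on opposite strands cannot be assigned. The authors' fold changes, p-values and adjusted p-values were deposited too and were not used, nor were 8 columns of normalized values.

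Genes were filtered with filterByExpr at its defaults, scaled by TMM and tested with the quasi-likelihood test of edgeR 4.0.16 (R 4.3.3), with adjustment over all tested genes. Standard errors follow from the log2 fold change and the F statistic. PTS + RS was compared with RS, and RGFP109 with vehicle, each within its own table. The tissue labels were compared with the treatment as a term. CPM used TMM factors over the 8 libraries, and log2 values used a prior count of 2. DESeq2 1.42.0, limma-voom (limma 3.58.1), other scalings, filters and samples were alternatives. Scripts ran in Python 3.11.15, and the tests were checked on simulated data for the direction and median size of set changes. The simulated spread was below that between the RGFP109 and vehicle libraries and held no tissue difference within groups. It therefore does not show how well the tests find changes in those libraries. Between libraries of a group the mean chi-square of the counts per gene was 4.95 to 83.8, above sampling noise, so no library was counted as a copy. In PTS + RS and RS, libraries of the same number did not deviate together (correlation of deviations 0.0352). In RGFP109 and vehicle they did (0.299), where the number is also the tissue label, so that the block compares libraries of the same label.

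The 9 genes and all lists were chosen with earlier results of these data known. Named beyond them were other complement genes called in any comparison and, in each experiment, the 3 with the largest log2 fold change among those not called. The 3 genes most correlated with each member were named too, and Tmem119, Gfap, Ccl2 and Hdac3 where a result turned on them. C4a, Sst and Etv1 were named after their values were seen. Depth was 15902013 to 21712033 counts per library, and with 2 libraries per group the spread between libraries limits the precision.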

Additional observations from a re-analysis of the deposited data

Results flagged for a closer look

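For 4 of the 9 complement genes the log2 ratio of RGFP109 over vehicle pointed one way in replicate 1 (cortex label) and the other way in replicate 2 (amygdala label). The ratios were 0.17 and -0.36 for C1qa, 0.36 and -0.48 for C1qb, 0.38 and -0.48 for C1qc, and 3.38 and -0.83 for C3. The difference between the labels was not tested, since there is 1 library per treatment and label. The C3 ratio in replicate 1 rests on 9 counts in the vehicle library against 101 with RGFP109, and that vehicle library is the one with 1934 CPM of olfactory bulb markers. The choroid plexus list was at 46.4 CPM in that library and at 1523 CPM in RGFP109 replicate 1.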

How the results depend on the processing

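Each comparison has 2 libraries per group, the RGFP109 and vehicle groups each mix tissue labels, and differences of over 2 standard errors were not called in the latter, as for Serping1 (-0.71 ± 0.328 SE). For PTS + RS against RS, 7 of the 9 genes were called with DESeq2, with limma-voom, with DESeq2 size factors, with no filter and with the replicate block, and 7 to 8 without 1 library. With all 8 libraries in 1 fit, 0 were called and 0 of the other complement genes, with 0 genes higher and 0 lower. A tissue term in that fit, added after seeing the data, gave 6 of the 9 (C3 was lost, adjusted p = 0.18), 188 genes higher and 6 lower. No direction changed among the 9 genes in this comparison, and without 1 library the log2 fold changes were 2.02 to 4.10 for the 7 called genes, 0.32 to 1.15 for Serping1 and 0.43 to 0.85 for Clu. For Clu the adjusted p was 7.5e-05 with DESeq2, 7e-09 with no filter, and 0.00052 and 1.1e-05 without PTS + RS replicate 1 and 2, with the fold limit alone not met. Over all genes, 373 were called higher and 16 lower. With no filter these were 604 and 155, DESeq2 called 35 lower and the replicate block 32 lower, and 103 were lower with no fold limit. Without 1 library, 3 to 5 other complement genes, 308 to 626 genes higher and 15 to 192 lower were called, with the highest count of other complement genes and of genes higher without PTS + RS replicate 2 and the highest count of genes lower without PTS + RS replicate 1. The numbers of these groups share no animal or batch in the labels, and the replicate block changed none of the calls of the 9 genes.

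For RGFP109 against vehicle, 0 genes were called with or without the replicate block, and the block changed no call in this comparison. The only calls came without vehicle replicate 2, with 15 genes higher and 78 lower, none of them a complement gene (0 to 15 higher and 0 to 78 lower without 1 library). The log2 fold change of C3, -0.59, was 1.43 with limma-voom, 0.86 with the replicate block and 0.63 with the tissue term. Without 1 library the log2 fold changes ranged from -1.02 to 0.98 for C1qa, -0.93 to 1.04 for C1qb, -0.87 to 0.93 for C1qc, -2.26 to 5.31 for C3, -0.51 to 0.63 for C4b, -1.26 to 1.09 for C3ar1, -1.56 to 0.59 for C5ar1, -0.01 to 1.07 for Clu, -0.94 to 0.88 for Itgb2, -0.07 to 0.23 for Itgam and -2.50 to 1.52 for Itgax. Serping1 stayed negative, from -1.02 to -0.32.

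For the amygdala label against the cortex label, 5 of the 9 genes were called with no filter and 3 with DESeq2, and 0 to 7 without 1 library. Of other complement genes 1 was called with no filter and 0 to 9 without 1 library. Over all genes, 187 were higher and 53 lower with no filter, 156 higher and 53 lower with DESeq2, and 0 to 1396 higher and 0 to 1116 lower without 1 library, the calls coming when a library labelled cortex was left out. No log2 fold change of the 9 genes turned in these fits, and without 1 library they ranged from 2.90 to 6.52 for C3, 0.08 to 1.09 for Clu, 0.19 to 0.96 for Serping1 and 0.94 to 1.94 for the other 6. Beyond fewer samples or genes, the cause of these differences was not tested. Scaling each table by its own TMM factors moved no level by more than 1.18%.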

Other observations

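The study's primer list for quantitative PCR, a measurement separate from these libraries, names a pair for complement C3 and a pair for MCP1, the protein of Ccl2. Capitals mark the 18 bases that their forward primers share.

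C3 forward: GTCCCTGTCATGCTTCTGg

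C3 reverse: gctctccagcctactcattg

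MCP1 forward: agGTCCCTGTCATGCTTCTG

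MCP1 reverse: tgggatcatcttgctggtg

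Over 141767 reference transcripts searched for exact matches, both primers of the C3 pair matched transcripts of Ccl2 alone, with a product of 144 bases, and neither matched any of the 4 C3 transcripts. The MCP1 pair matched Ccl2 with a product of 128 bases. The forward primer of a pair named complement C1 matched no transcript, and its reverse primer matched C1s1 and C1s2. Whether the printed sequences are those used was not tested. In the libraries, Ccl2 (chr11:82035571-82037453, GRCm38) had 13 and 14 counts in PTS + RS and 1 and 0 in RS, against 370 and 264 and 26 and 28 for C3. The C3 values above rest on reads counted on the C3 gene and use no primer.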
